A study of Caenorhabditis elegans with 146 samples.

Results

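Germ cells of the C. elegans gonad load large amounts of mRNA into the growing oocyte, and a set of RNA-binding proteins holds much of it in cytoplasmic particles until it is translated or removed. The genes described here encode core proteins of these storage particles: cgh-1, car-1, ifet-1, cey-1, cey-2, cey-3 and cey-4. They were taken by name and not by a rule on their measured values, though with earlier results of these data known. They make up 7 of the 46927 genes in the count table. All 7 matched 1 row each of the read counts and of the TPM values, and all 7 entered the test of every comparison.

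CGH-1 is a DEAD-box RNA helicase of the DDX6 family, CAR-1 is an Lsm-domain protein of the Lsm14/RAP55 family that works with it, and IFET-1 is the worm counterpart of the eIF4E-binding protein 4E-T. The CEY proteins are Y-box proteins with a cold-shock domain that bind mRNA broadly. CGH-1, CAR-1 and IFET-1 are found together in germ granule and P body-like particles of the germline, where they keep stored mRNAs stable and repress their translation. In worms, cey-2 and cey-3 are known as germline genes, whereas cey-1 and cey-4 are also used in somatic tissue.

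Each library came from a single piece of the gonad, or a single oocyte or zygote, of a well-fed gravid hermaphrodite of strain AZ212, which carries a pie-1::H2B::GFP germline transgene. The stages, with the number of libraries marked as used in the deposited quality table, were S1 (mitotic region and transition zone, 19), S2 (pachytene zone, 17), S3 (diplotene loop, 17), S4 (diakinesis segment, 11), the -3 oocyte (6), the -2 oocyte (13), the -1 oocyte (15) and the zygote, P0 (6). Together these are 104 of the 135 libraries of the 8 stages. Sheath cells around the gonad were harvested with the segments and oocytes but not with the zygotes. In such bulk samples, fewer cells of a type and less RNA per cell cannot be told apart.

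The used libraries held between 1273040 and 73449925 reads counted on genes, with a median of 3120026, and the lowest count of any member in any of them was 191 reads, for cey-1. By the quality table, 82 of the used libraries belong to batch A and the other 22 to batch B, which gave 2 to 5 libraries to each stage. The normalized counts of cgh-1, car-1, cey-2, cey-3 and cey-4 had higher medians in batch B than in batch A in all 8 stages, by a median factor across stages of 1.81 for cgh-1 and up to 5.47 for cey-4, whereas those of ifet-1 were lower in batch B in all but 1 stage. Of the used libraries, 1 P0 library of batch A, from worm unknown5, was read from 1 end only and stood apart from the other P0 libraries for several members, so the P0 values that rest on it are given with and without it. The 2 P0 libraries of batch B, from worms unknownA and unknownB, have the stage Unknown in the quality table. Their sample titles, which call them zygotes, were followed. The distal tip cell gene lag-2, a Notch ligand, was at 0 TPM in all 17 S2 libraries and had a median of 1.86 TPM in S1, and the summed TPM of 6 oocyte marker genes had a median of 381 in S1, 2096 in S2 and 15257 in -3 oocytes.

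The members lie apart in the genome, except for cey-2 and cey-3. On the WBcel235 assembly, cgh-1 (WBGene00000479) spans positions 7495320 to 7497832 of chromosome III on the minus strand, in 4 exons that encode 430 amino acids. car-1 (WBGene00012484) spans 12904470 to 12906040 of chromosome I on the plus strand, with 4 exons and 340 codons. ifet-1 (WBGene00004132) spans 4471411 to 4475150 of chromosome III on the minus strand and is the longest, with 10 exons and 761 codons. Among the Y-box genes, cey-1 (WBGene00000472) lies at 11039348 to 11041206 of chromosome II on the minus strand, with 3 exons and 208 codons. cey-4 (WBGene00000475) lies at 10866946 to 10868703 of chromosome III on the minus strand, with 3 exons and 294 codons. cey-2 (WBGene00000473, 5619569 to 5620669, plus strand, 267 codons) and cey-3 (WBGene00000474, 5571796 to 5572949, minus strand, 265 codons) are 46.6 kb apart on chromosome I with 3 exons each. They encode closely related proteins, so reads that fit both genes may have been lost or divided in the counting, and their values carry that uncertainty. cey-1 overlaps the opposite-strand gene srlf-15 by 128 bases, and srlf-15 had 71 reads over all used libraries against 203231 for cey-1. cey-4 shares 1 base with oxi-1, and cgh-1 holds the small nucleolar RNA gene C07H6.10, which had 1 read.

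All 7 genes had reads in every used library, and cey-2, cey-3, cgh-1, cey-4 and car-1 were among the abundant mRNAs. Segments and oocytes also held somatic cells, so these levels are not those of germ cells alone. Within each library, ranked by TPM (a transcript level that takes gene length into account), the median rank over the used libraries was 43 for cey-2, 117 for cey-3, 122 for cgh-1, 132.5 for cey-4, 185.5 for car-1, 691 for cey-1 and 971.5 for ifet-1. In the order of median TPM, cey-2 came first in every stage, with the lowest median of 1523 TPM in S1 and the highest of 4820 TPM in S2. The least abundant member was ifet-1 in S1, S3, S4 and the 3 oocytes, at medians between 66.0 and 157 TPM. In S2 and P0 it was cey-1, at medians of 116 and 156 TPM. Summed over the 7 genes, the members took a median of 0.501% of TPM in S1, 0.95% in S2, 0.569% in S3, 0.67% in S4, 0.905% in -3 oocytes, 0.864% in -2 oocytes, 0.607% in -1 oocytes and 0.719% in P0.

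In the tests between neighboring stages described below, members were called only in S2 against S1 and in S3 against S2. The summed TPM also moved later, from a median of 0.569% in S3 to 0.905% in -3 oocytes and 0.607% in -1 oocytes. That sum was not tested. Normalized counts (reads per gene divided by a size factor per library, used to compare stages within a gene) were highest in S2 for cgh-1, car-1, ifet-1 and cey-2, highest in P0 for cey-3 (7024, but 3093 without the single-end library, below the 5520 of S2), and highest in S1 for cey-1 and cey-4. Within batch A, however, the cey-1 median was 1426 in -2 oocytes and 1401 in -3 oocytes, against 1322 in S1. By median TPM, cey-1 was highest in -2 oocytes (262, against 152 in S1) and ifet-1 in P0 (234, against 156 in S2). The highest median TPM of cey-3 was in -3 oocytes, at 1889, and the remaining members kept the same stage. By normalized counts, the stages of cgh-1 ordered S2, -3 oocyte, S1, S3, S4, -2 oocyte, -1 oocyte and P0, with medians between 26597 and 7658 and a ratio of 3.47. For cey-2 the order was S2, P0, -3 oocyte, -2 oocyte, -1 oocyte, S1, S3 and S4, with medians between 23245 and 7795. The place of P0 in this order rested on the single-end library and those of batch B. Its cey-2 median was 17351 with all 6 libraries and 6104 without the single-end one, and within batch A the P0 medians were 5746 for cey-2 and 3059 for cey-3, against 23055 and 5491 in S2. For cey-4 it was S1, S2, -1 oocyte, P0, -3 oocyte, -2 oocyte, S3 and S4, with medians between 6490 and 2035. The ratio of the highest to the lowest stage median was 2.39 for car-1, 1.93 for ifet-1, 1.98 for cey-1 and 2.46 for cey-3. In these orders the ranges of neighbors overlapped in all 49 pairs, and in 44 of them each median lay inside the range of the other stage. A test of any difference among the 7 stages from S1 to the -1 oocyte (edgeR quasi-likelihood test, Benjamini-Hochberg adjusted over 9013 genes) was passed by 67.6% of genes and by all 7 members, with adjusted p between 8.4e-09 for cgh-1 and 0.000105 for cey-3.

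**Figure D1:**
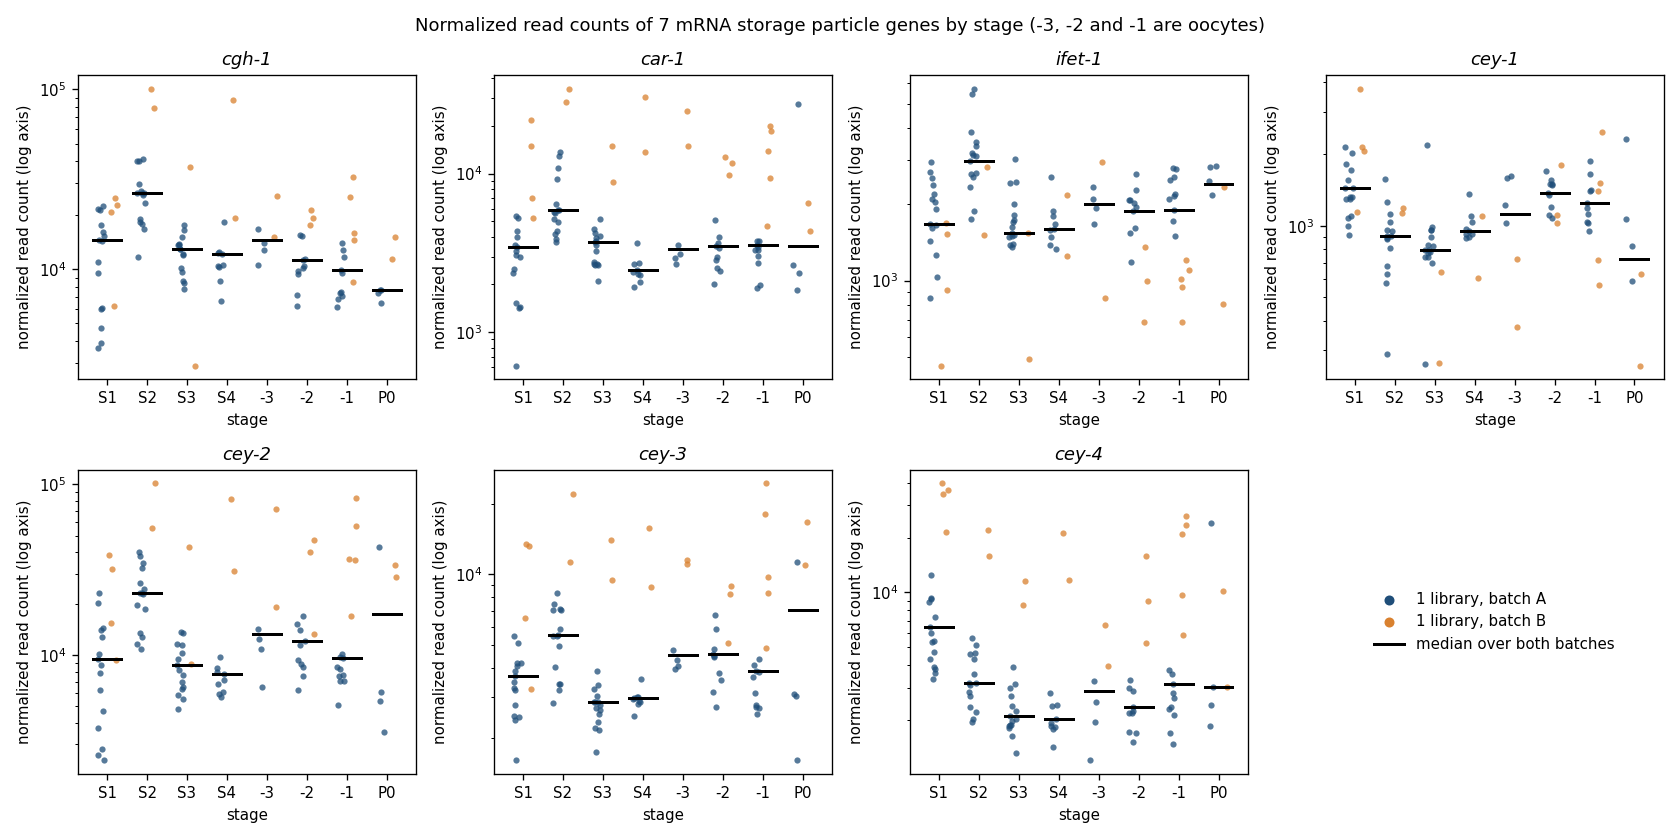
Normalized read counts of the 7 genes (log axis) in each used library by stage, from S1 to P0, with batch A and B in separate colors and the stage median as a bar. cgh-1 and cey-2 peaked in S2, at medians of 26597 and 23245, while cey-4 had its highest median, 6490, in S1.

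The comparison of S2 with S1 asks which genes change as germ cells pass from the mitotic region and transition zone into pachytene. Here all 7 members passed the test, and the set divided by direction: cgh-1, car-1, ifet-1, cey-2 and cey-3 rose in S2, whereas cey-1 and cey-4 fell. Calls required an adjusted p under 0.05 (Benjamini-Hochberg, over all genes tested) together with a change of more than 1.5-fold in either direction, from a model that also held the batch and how many genes a library detected. Of 6293 genes tested, 14.4% were called, 7.37% as higher in S2 and 7.07% as lower.

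The helicase gene cgh-1 had 11715, 26597 and 100940 normalized counts (lowest, median and highest) in S2 libraries, against 3653, 14582 and 24895 in S1 libraries. Its level was 2.42-fold higher in S2 (log2 fold change 1.27 ± 0.24 SE, edgeR adjusted p = 0.000248), and 11 of the 17 S2 libraries lay above every S1 library. The gene of its partner, car-1, had 3716, 5911 and 34359 normalized counts in S2, against 615, 3444 and 21909 in S1. All 17 S2 libraries lay above the S1 median for car-1, though only 2 lay above the highest S1 library, one of batch B. The fold change of car-1 was 2.47 (log2 1.30 ± 0.23 SE, edgeR adjusted p = 9.5e-05). For ifet-1, the translational repressor that binds eIF4E, S2 libraries had 1507, 2971 and 5724 normalized counts, against 462, 1672 and 2950 in S1. It was 1.804-fold higher in S2 (log2 0.85 ± 0.17 SE, edgeR adjusted p = 0.000513), and 16 of the 17 S2 libraries lay above the S1 median.

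Among the Y-box genes, the germline pair rose and the pair also used in somatic tissue fell. cey-2 had 10896, 23245 and 101245 normalized counts in S2 libraries, against 2414, 9539 and 38556 in S1 libraries, and rose 2.69-fold (log2 1.43 ± 0.27 SE, edgeR adjusted p = 0.000248), the largest change of the 7. cey-3 had 2818, 5520 and 22124 normalized counts in S2, against 1612, 3697 and 13501 in S1, and rose 1.64-fold (log2 0.72 ± 0.18 SE, edgeR adjusted p = 0.00497), with 13 of 17 S2 libraries above the S1 median. In the opposite direction, cey-1 had 289.7, 908 and 1567 normalized counts in S2, against 910, 1439 and 3756 in S1. Its level in S2 was 0.576 times that in S1 (log2 -0.80 ± 0.16 SE, edgeR adjusted p = 0.000504), and 9 of the 17 S2 libraries lay below every S1 library. cey-4 had 1946, 3199 and 22095 normalized counts in S2, against 3350, 6490 and 39603 in S1, a fold of 0.603 (log2 -0.73 ± 0.17 SE, edgeR adjusted p = 0.00171). For cey-4 too, 9 of the 17 S2 libraries lay below every S1 library.

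The S2 calls held without any single library and within batch A. All 7 members kept their calls in each of the 36 fits that left out 1 of the S1 or S2 libraries, and within batch A alone all 7 were called, with log2 fold changes between -0.80 for cey-1 and 1.34 for cey-2. The 4 S1 and 2 S2 libraries of batch B were not fitted alone. The labels name the worm of each library, and 11 worms gave both a used S1 and a used S2 library. Within worms, cgh-1, car-1 and cey-2 were higher in S2 in 10 of 11, ifet-1 and cey-3 in 9 of 11, and cey-1 and cey-4 were lower in S2 in 10 of 11. The median log2 ratio of S2 over S1 in a worm was 1.44 for cgh-1 and 1.66 for cey-2, against -0.71 for cey-1 and -0.94 for cey-4. Among markers of other cells, 0 of the 5 tested sheath genes (summed TPM of the 9 listed 0.271 to 110.4 in S2 and 0.967 to 239.6 in S1), 0 of 3 spermatheca genes and 0 of 4 intestine genes were called here, whereas lag-2 was lower in S2 and 5 of 6 oocyte markers were higher. The median log2 fold changes of the tested sheath, spermatheca and intestine genes were -1.02, -0.85 and -0.94, beside -0.04 over all genes. The missed calls thus do not show equal amounts of these cells in S1 and S2. The part of these cells in the values of the 7 genes was not tested.

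**Figure D2:**
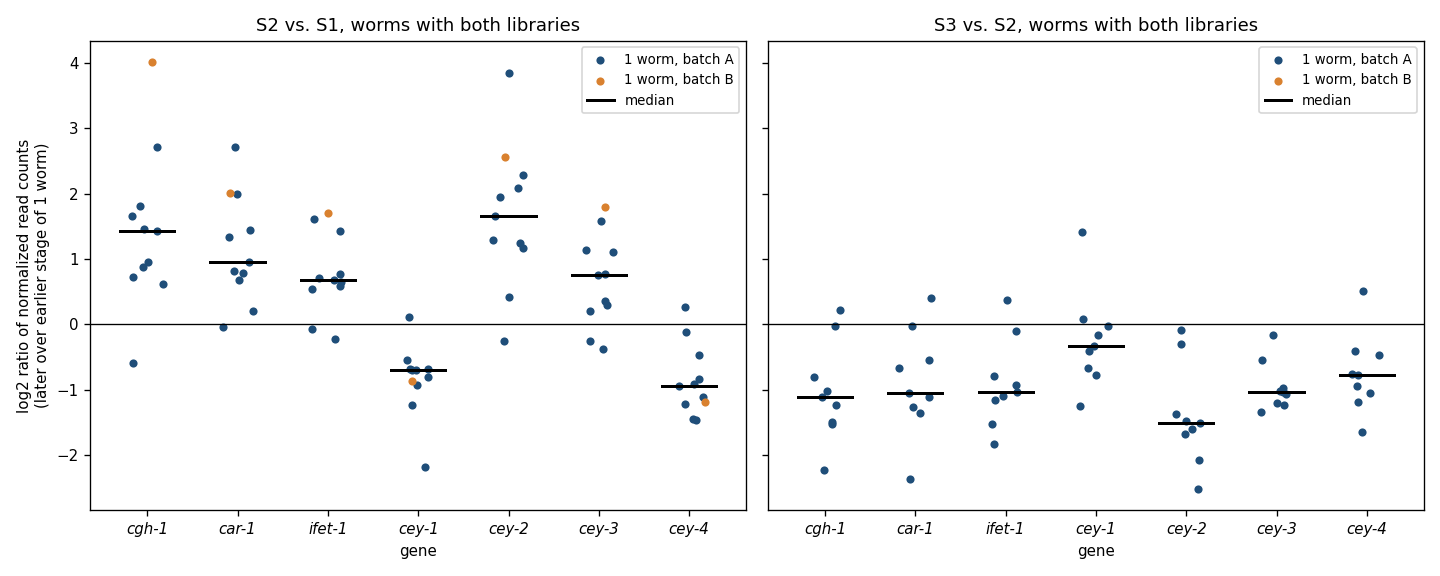
Log2 ratio of normalized read counts in worms that gave both libraries, 11 worms for S2 over S1 (left) and 9 worms for S3 over S2 (right), where each point is 1 worm, colored by batch, and the bar is the median. In the left panel the medians of cey-1 and cey-4 lay below 0 and the other 5 above it, and in the right panel cey-2 and cey-3 were lower in S3 in 9 of 9 worms.

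The step from pachytene to the diplotene loop, S3 against S2, had more genes called by this model than any other step between neighbors. Of 7890 genes tested, 24.3% were called, most of them higher in S3, and 4.26% of the tested genes were called lower. The members ran against that balance, with 3 of 7 called, all lower in S3, and none called higher. cgh-1 had 2915, 12950 and 37014 normalized counts in S3, against 11715, 26597 and 100940 in S2. It fell to 0.447 times the S2 level (log2 -1.16 ± 0.35 SE, edgeR adjusted p = 0.0113), and 16 of 17 S3 libraries lay below the S2 median. cey-2 had 4837, 8803 and 42862 normalized counts in S3, against 10896, 23245 and 101245 in S2, with 12 of 17 S3 libraries below every S2 library. The fold of cey-2 was 0.539 (log2 -0.89 ± 0.30 SE, edgeR adjusted p = 0.024). cey-3 had 1753, 2859 and 14087 normalized counts in S3, against 2818, 5520 and 22124 in S2, a fold of 0.622 (log2 -0.68 ± 0.25 SE, edgeR adjusted p = 0.0388).

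The other members did not pass in S3 against S2. Their log2 fold changes were -0.58 ± 0.27 for car-1 (edgeR adjusted p = 0.126), -0.31 ± 0.21 for ifet-1 (0.316), -0.53 ± 0.30 for cey-1 (0.211) and -0.21 ± 0.22 for cey-4 (0.556). All 7 values were below the median of all genes tested, 0.14. The 3 calls were less firm than those of S2 against S1. Without the S3 library of worm 33 none of the 7 was called (cgh-1 -0.98, adjusted p = 0.0757; cey-2 -0.87, 0.0758; cey-3 -0.59, 0.144), and without the S2 library of worm 1 only cgh-1 was. cey-3 was also not called without the S2 library of worm 23 or the S3 library of worm 32, and cey-1 was called without the S3 library of worm 2 (-0.94, 0.00543). Within batch A alone the same 3 members were called, at -0.90 for cgh-1, -0.85 for cey-2 and -0.84 for cey-3. In the 9 worms that gave both libraries, the normalized counts of cey-2 and cey-3 were lower in S3 in 9 of 9, and those of cgh-1, car-1, ifet-1 and cey-4 in 8 of 9. With the worm as a block and the share of detected genes kept as a covariate, the edgeR log2 fold change of cgh-1 was 0.011 ± 0.44 (adjusted p = 1) and those of cey-2 and cey-3 were -0.28 and -0.55 (0.788 and 0.35), while cey-1 was called at -1.76 (0.0337). That blocked fit called 15 of 7981 genes in all, whereas the blocked fit of S2 against S1 called 1212 of 6683. When libraries not marked as used were added, S2 against S1 also had more calls, 1189 of 8117 genes, against 927 of 8496 in S3 against S2. The share of genes detected moved with this step, at a median of 21.1% in S3 and 15.98% in S2, and 3 of 3 tested spermatheca markers and 3 of 4 intestine markers were called higher in S3. The summed TPM of the 5 listed spermatheca genes ranged over 0 to 677 in S3 and 0 to 90.9 in S2, and that of the 5 intestine genes over 0.36 to 1360.5 in S3 and 0.0514 to 88.8 in S2. Their part in the result was not tested.

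**Figure D3:**
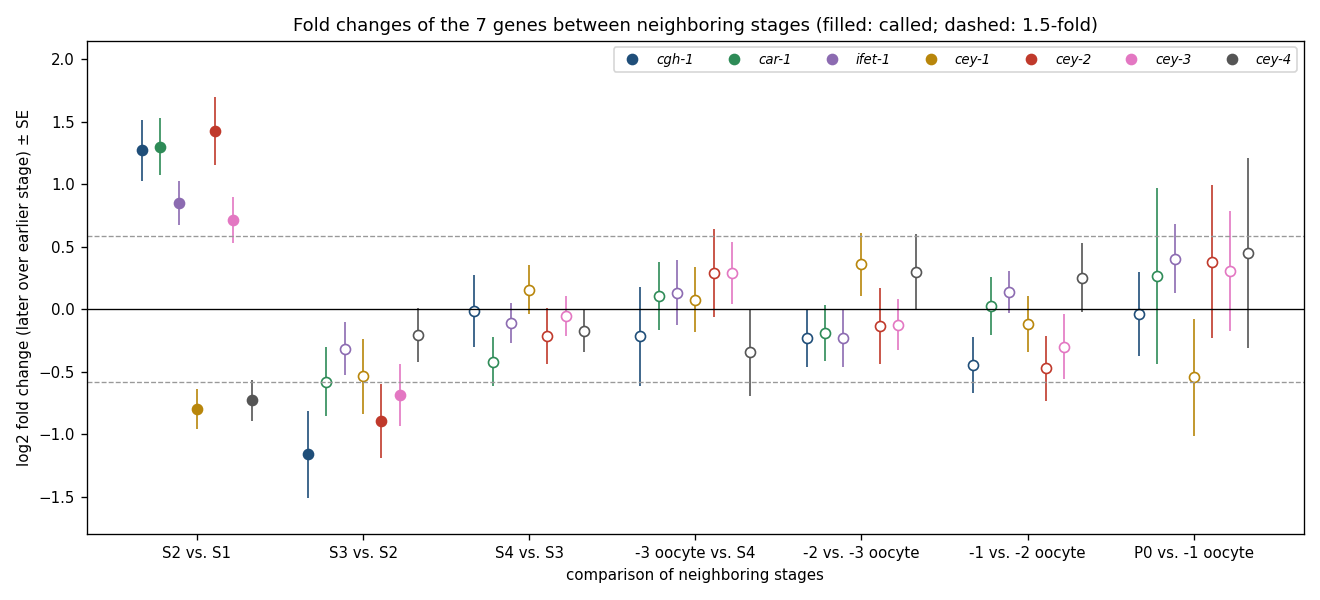
Log2 fold change of each of the 7 genes in the steps between neighboring stages, later over earlier stage, from the edgeR fit with its SE as the bar; filled points were called and the dashed lines mark a 1.5-fold change. In S2 against S1 all 7 were called, with values between -0.80 and 1.43, in S3 against S2 cgh-1, cey-2 and cey-3 were, and in later steps none.

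From the diplotene loop to the -1 oocyte, no member passed in a step between neighbors. In S4 against S3, where 8.09% of 8513 genes were called, the log2 fold changes of the members lay between -0.42 ± 0.20 for car-1 (edgeR adjusted p = 0.186) and 0.16 ± 0.20 for cey-1 (0.682). car-1 had 1914, 2476 and 30387 normalized counts in S4, against 2108, 3719 and 14998 in S3, and within batch A alone it was called lower in S4 (log2 -0.59, adjusted p = 0.0158). For cgh-1, the interval of this difference ran from -0.57 to 0.55. In -3 oocytes against S4, 1.24% of 8362 genes were called, and the members lay between -0.34 ± 0.35 for cey-4 and 0.29 ± 0.35 for cey-2. Within batch A cey-3 was called higher in -3 oocytes (0.59, edgeR adjusted p = 0.0499). The normalized counts of cey-3 were 3955, 4538 and 11560 in the 6 -3 oocytes, against 2499, 2975 and 15832 in S4, and all 6 lay above the S4 median.

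Between the oocytes the levels of the members overlapped broadly. In -2 against -3 oocytes, 0 of 7956 genes were called by edgeR (0%), with 196 at an unadjusted p under 0.05, and DESeq2 also called 0, with 411 at an unadjusted p under 0.05. With the worm as a block, edgeR called 61 of 7345 genes, 55 higher and 6 lower in -2 oocytes, but no member. That blocked fit held only the 3 worms that gave both libraries, against 13 -2 oocyte and 6 -3 oocyte libraries without the block. Its calls thus rest on very few libraries. In the fit without the block the members had log2 differences between -0.23 ± 0.23 for ifet-1 and 0.36 ± 0.25 for cey-1. In -1 against -2 oocytes, 0.85% of 8821 genes were called, and the members lay between -0.47 ± 0.26 for cey-2 and 0.25 ± 0.28 for cey-4. The lowest adjusted p among them, 0.823, was that of cgh-1 (log2 -0.45 ± 0.22), which had 6195, 9966 and 32479 normalized counts in -1 oocytes, against 6285, 11254 and 21460 in -2 oocytes. For several members the 95% interval of the log2 difference, by a normal approximation to its SE, reached past a 1.5-fold change, as for cey-2 in -1 against -2 oocytes (-0.98 to 0.039), so the missed tests do not show equal levels.

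In the zygote, after fertilization, no member differed from the -1 oocyte by the test, in which 5.08% of 9332 genes were called. The log2 fold changes of P0 over the -1 oocyte lay between -0.55 ± 0.47 for cey-1 and 0.45 ± 0.76 for cey-4, and the adjusted p between 0.538 for ifet-1 and 0.979 for cgh-1. cgh-1 had 6499, 7658 and 15090 normalized counts in the 6 P0 libraries, against 6195, 9966 and 32479 in -1 oocytes. ifet-1, the repressor of cap-dependent translation, had 809, 2399 and 2840 normalized counts in P0, against 687, 1893 and 2783 in -1 oocytes, and 5 of the 6 P0 libraries lay above the -1 oocyte median.

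The single-end P0 library set the sign of several of these values. For car-1 it had 27648 normalized counts, while the other 5 P0 libraries had 1852, 2643 and 6496 as lowest, median and highest. For cey-2 it had 43146 normalized counts, where the other 5 had 3545, 6104 and 33620, and for cey-4 it had 24028, where they had 1848, 3037 and 10128. Without it the log2 fold change of P0 over the -1 oocyte was -0.69 for car-1 against 0.27 with it, -0.45 against 0.38 for cey-2, -0.10 against 0.31 for cey-3 and -0.44 against 0.45 for cey-4. Those of cgh-1 (-0.11), ifet-1 (0.43) and cey-1 (-0.86) kept their sign, and no member was called either way.

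Across the whole span from S1 to the -1 oocyte, 39.6% of 8668 genes were called, 14.8% as lower in -1 oocytes. Only cey-4 was called among the members, lower in -1 oocytes. It had 1482, 3162 and 26237 normalized counts in -1 oocytes, against 3350, 6490 and 39603 in S1, with a fold of 0.455 (log2 -1.14 ± 0.39 SE, edgeR adjusted p = 0.0197). Of the 15 -1 oocytes, 8 lay below every S1 library, and cey-4 was lower in the -1 oocyte in 7 of the 7 worms that gave both. The call was lost within batch A alone (-0.74, adjusted p = 0.119) and with the worm as a block (0.54 ± 1.72, adjusted p = 1), a fit that called 3 genes of 8042. cgh-1 missed the threshold (log2 -1.00 ± 0.44 SE, edgeR adjusted p = 0.0675), with 12 of 15 -1 oocytes below the S1 median. The remaining members lay between -0.64 ± 0.33 for cey-1 and 0.05 ± 0.45 for car-1. In this comparison markers of somatic cells differed as well: the summed TPM of 9 sheath genes had a median of 1508 in -1 oocytes (range 84.2 to 4234) and 26.0 in S1 (0.967 to 239.6), and that of 5 spermatheca genes 16424 in -1 oocytes (35.8 to 77141) and 6.52 in S1 (0 to 157). Their part in the value of cey-4 was not tested.

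The shares of the Y-box genes among themselves show the change in S2 without any scaling between libraries. Of the summed TPM of the 4 cey genes, cey-2 took a median of 70.5% in S2 (range 55.4 to 76.1%), against 43.8% in S1 (18.5 to 70.2%). cey-4 took 9.85% in S2 (6.18 to 21.4%), against 31.5% in S1 (10.5 to 70.2%). The share of cey-3 was 17.7% in S2 and 18.2% in S1, and that of cey-1 1.63% in S2 and 4.11% in S1. The spread among S1 libraries was thus far wider than among S2 libraries, and cey-4 was the most abundant of the 4 in 8 of the 19 S1 libraries.

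In the 11 worms with both stages, the share of cey-2 was higher in S2 in 11 of 11, by a median of 29.9 percentage points, and the share of cey-4 was lower in 11 of 11, with a median difference of -24.0 points. The share of cey-1 was lower in 11 of 11. That of cey-3 was lower in 8 of 11, although its counts were called higher in S2. As the shares are bound to each other, these are not separate results. The batches differed in S1: the median share of cey-4 there was 50.8% in the 4 libraries of batch B and 22.95% in the 15 of batch A, but within batch A it was still lower in S2, at 9.54%. From S3 onward the median share of cey-2 lay between 62.1% in S3 and 52.2% in P0, and that of cey-4 between 9.86% in -3 oocytes and 20.96% in P0. cey-2 was the most abundant cey gene in 95 of the 104 libraries. The ratio of cey-2 to cey-3, the neighboring germline pair, was 3.96 in S2 and 2.24 in S1 by median, and between 1.99 in P0 and 2.94 in S3 elsewhere.

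**Figure D4:**
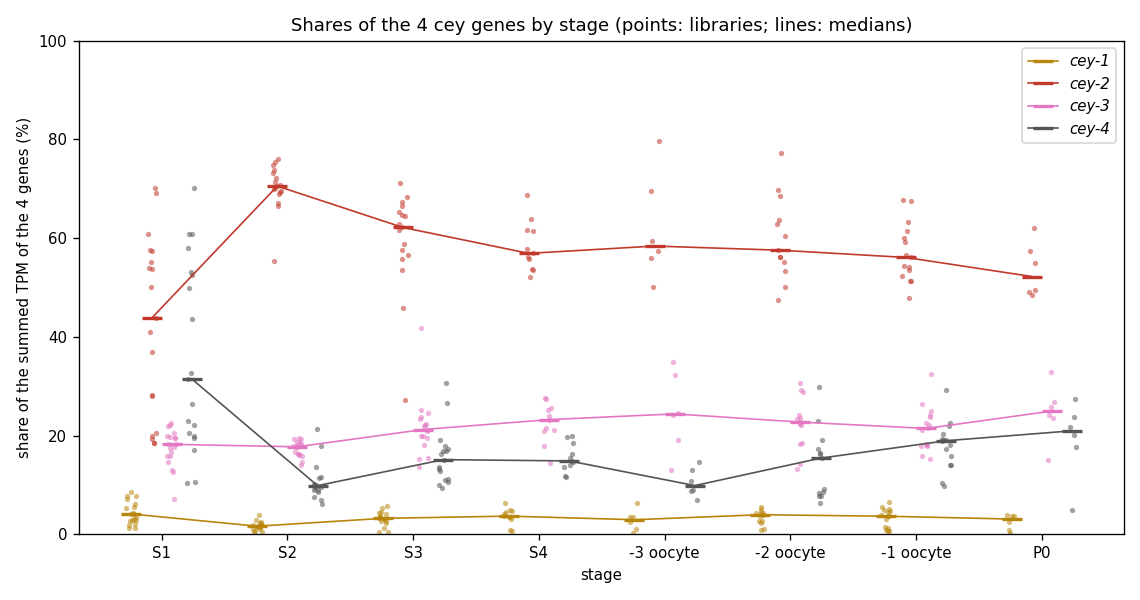
Share of cey-1, cey-2, cey-3 and cey-4 in their summed TPM (percent) in each used library, by stage from S1 to P0, with the stage median as a bar. The median share of cey-2 was 70.5% in S2 and 43.8% in S1, and that of cey-4 was 9.85% in S2 and 31.5% in S1.

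Across libraries, cgh-1, car-1, ifet-1, cey-2 and cey-3 varied together, and cey-1 and cey-4 less so with them. As a description over the 82 libraries of batch A, which share stages and depth differences, Pearson's r of log2 normalized counts was 0.859 between cey-2 and car-1, 0.857 between cey-2 and cey-3, 0.707 between cey-2 and cgh-1 and 0.687 between car-1 and ifet-1. Over the 22 libraries of batch B the same values were 0.731, 0.689, 0.667 and 0.511. For cgh-1, car-1, ifet-1, cey-2 and cey-3, another member of the 7 was the most similar of the 5564 genes compared within batch A. Places in batch B were not computed. By contrast r was -0.341 between cey-1 and cgh-1 and 0.0989 between cey-4 and cey-2 in batch A, and 0.265 and 0.0853 in batch B.

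Outside the 7, the genes with the highest r in batch A were Y18D10A.11 (0.689) and F59A3.12 (0.669) for cgh-1, rab-6.1 (0.633) and hpo-40 (0.63) for car-1, and F59A3.12 (0.597) and hrpk-1 (0.588) for ifet-1. For cey-2 they were F59A3.12 (0.762) and rab-6.1 (0.703), and for cey-3 rab-6.1 (0.707) and daf-41 (0.666). cey-4 stood nearest to dkc-1 (0.841) and riok-2 (0.825), and cey-1 to ent-1 (0.695) and hmg-1.1 (0.662). dkc-1 encodes dyskerin, the pseudouridine synthase of small nucleolar ribonucleoproteins. In batch B the r values lay between -0.01 for car-1 with rab-6.1 and 0.691 for cey-4 with dkc-1. In S2 against S1, dkc-1 (log2 fold change -0.97 ± 0.20, edgeR adjusted p = 0.000485), ent-1 (-1.66 ± 0.26) and hmg-1.1 (-0.75 ± 0.17) were called lower in S2, and riok-2 was not called (-0.54 ± 0.17).

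Other genes of stored mRNA were set beside the members by their counts of calls. Of the cap- and poly(A)-binding genes, 5 of 7 were tested in S2 against S1. There ife-3, an eIF4E isoform, was higher in S2 (log2 0.63 ± 0.21 SE, edgeR adjusted p = 0.0287) and pab-1, the main cytoplasmic poly(A)-binding protein gene, was lower (-0.70 ± 0.21, adjusted p = 0.0164), with a median of -0.70 over the list and -0.04 over all genes. pab-1 was also the most abundant of that list, at a mean of 1335 TPM. Of 6 tested P body and decapping genes only patr-1, a Pat1 family gene and the most abundant of them, was called (0.62 ± 0.19, adjusted p = 0.0196). Of 4 stress granule genes none was, and gtbp-1, the G3BP homolog and most abundant of these, had 0.11. Of the 8 oocyte translational repressors 5 were higher and none lower in S2, led by puf-5 (3.15 ± 0.40), a Pumilio family gene, pos-1 (2.09 ± 0.28), a CCCH zinc finger gene, and oma-1 (1.04 ± 0.24), with a list median of 0.96. lin-28, the other gene with a cold-shock domain, was not called (-0.40).

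In S3 against S2, 6 of the 8 repressors were called higher, led by lin-41 (log2 1.75 ± 0.33), puf-5 (1.53 ± 0.32) and oma-2 (1.37 ± 0.37), in the step where 3 members were called lower. gld-1, which represses translation in early meiotic cells, was the repressor called lower (-1.21 ± 0.28, edgeR adjusted p = 0.00103). Of the smaller lists, edc-3, an enhancer of decapping (-0.63), and gtbp-1 (-0.78) were lower in S3, while the eIF4E isoform genes ife-4 (5.32 ± 0.83) and ife-2 (4.65 ± 0.75) were higher beside the intestine and spermatheca markers named above. In S4 against S3 the eIF4E isoform genes ife-5 (-1.43), ife-1 (-0.92) and ife-3 (-0.68) were called lower and no other list had a call. From S4 to the -1 oocyte no gene of the lists was called in a step between neighbors, and in P0 against the -1 oocyte only pab-2 was, lower in P0 (-2.58 ± 0.75, adjusted p = 0.0449).

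Over the span of -1 oocytes against S1, all 7 cap- and poly(A)-binding genes were called, 3 higher and 4 lower, with pab-1 at -3.83 ± 0.48 and ife-4 and ife-2 at 7.24 ± 1.18 and 3.71 ± 0.97. Of the P body list dcap-2, the decapping enzyme gene (1.48 ± 0.32), and patr-1 (1.02 ± 0.37) were higher in -1 oocytes, and of the stress granule list gtbp-1 was lower (-1.20 ± 0.29) and atx-2, the ataxin-2 gene, higher (0.82 ± 0.30). Of the repressors 7 of 8 were higher, led by puf-5 (3.94 ± 0.70), pos-1 (3.30 ± 0.53) and oma-2 (3.04 ± 0.41), with a list median of 2.50. The members' median in the same comparison was -0.24, beside 0.24 over all genes tested. oma-1, oma-2 and lin-41 are also among the oocyte markers and gld-1 among the germline markers, so these counts share genes.

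**Figure D5:**
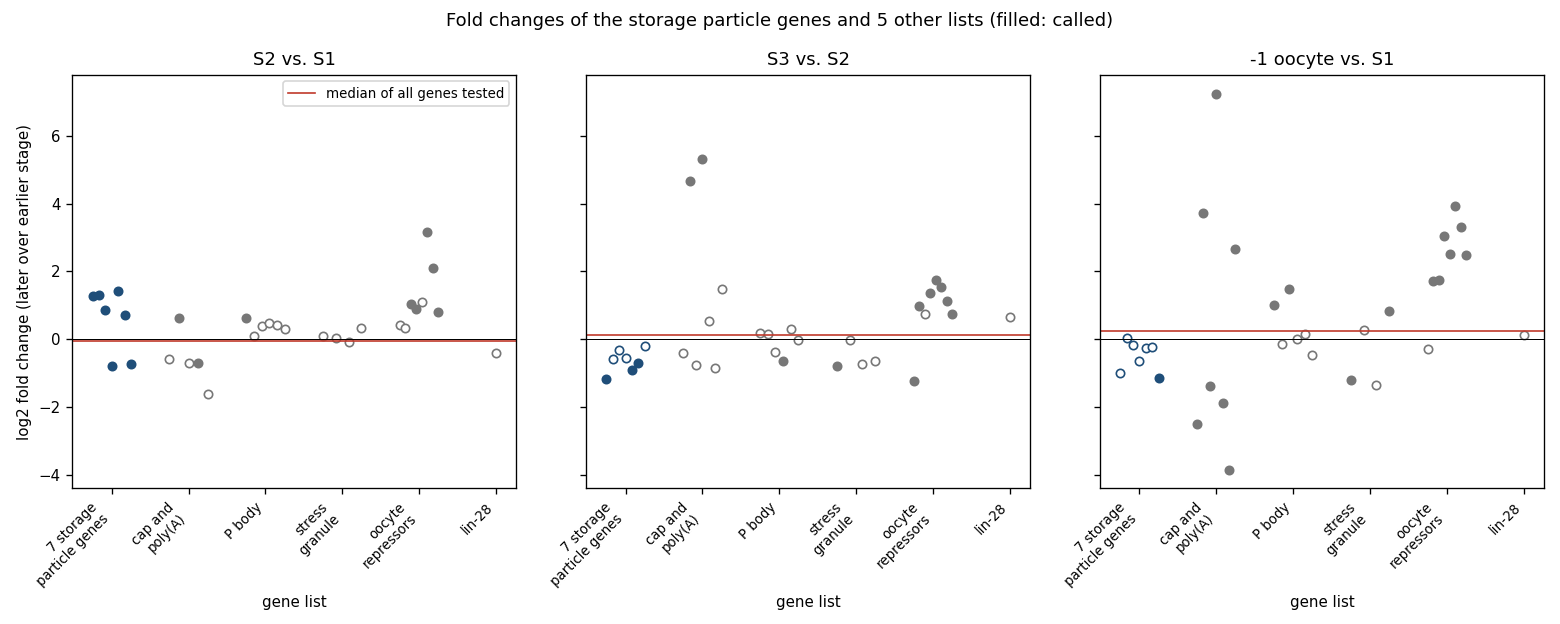
Log2 fold change, later over earlier stage, of each tested gene of the 7 storage particle genes (blue) and of the other lists (gray) in 3 comparisons; filled points were called and the red line is the median of all genes tested. In S2 against S1 the 7 genes lay between -0.80 and 1.43, while the repressors reached 3.15, and in S3 against S2 all 7 lay below the median of all genes.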

How the data were processed

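RNA-seq libraries of single gonad segments, oocytes and zygotes were compared. The authors trimmed reads with Trim Galore (quality at least 10, length above 35 bases), aligned them to WBcel235 with HISAT2 and deposited read counts per gene from HTSeq on WormBase WS291, without normalization. TPM values were made by the authors with Salmon; here they were rescaled to a common total over gene rows. The deposited fractions of the quality table (shares of reads or TPM) were used to describe libraries, and the total reads there are counts by the authors. Tool versions upstream are not given in the sources used here.

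Stages came from the sample labels, and the 104 stage libraries marked as used were analysed. The 9 early embryos and 2 libraries of mixed segments entered no test. Before testing, 797 genes (mitochondrial, rRNA, or tracking the 31 msp sperm genes at a Pearson r above 0.99) were left out. Counts were tested with edgeR 4.0.16 in R 4.3.3 (filterByExpr at a minimum count of 10, TMM, robust quasi-likelihood F test), adding as covariates the batch and the proportion of genes each library detected, and adjusted by Benjamini-Hochberg over all genes tested. SE was taken as the size of the log2 fold change over the square root of F. Normalized counts used median-of-ratios factors. p-values measure the spread between libraries, each with its own worm label within a stage. Alternatives were DESeq2 1.42.0, limma 3.58.1 on log2(TPM + 1) and log2(TPM + 0.1), median-of-ratios factors, no low-count filter, no detection covariate, a joint fit of the 8 stages, testing without removing genes, all mapped libraries, batch A alone, worm as a block, and each library left out in turn. Levels were summarized in Python 3.11.15 with pandas 2.3.3 and numpy 2.4.6. The tests were also run on counts simulated from a common gene profile with known changes. That simulation held no batch, detection or worm effect, so it does not check how the tests handle these.

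The pairing comes from the worm named in the labels. In batch A, deviations from the stage mean of libraries of the same worm correlated at a mean r of 0.147 (S2 vs. S1, 10 pairs), 0.213 (S3 vs. S2, 9), 0.182 (S4 vs. S3, 4), 0.351 (-3 oocyte vs. S4, 2), 0.437 (-2 vs. -3 oocyte, 3) and 0.303 (-1 vs. -2 oocyte, 5), and those of other worms between -0.0342 and 0.00157.

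The text names all 7 members, of each other list up to 3 called genes with the largest change and the most abundant gene, and the 2 genes most like each member among genes averaging at least 50 normalized counts. The members and lists were chosen with earlier results of these data known. ntl-1 matched no symbol. No sequence is printed, since no sequence table was used here.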

Additional observations from a re-analysis of the deposited data

Results flagged for a closer look

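Within the groups of 4 to 10 libraries, -3 oocytes and P0, 14 sets of values were screened for a library far from the rest, and 4 held one. The screen's chance rate of about 1 in 20 holds for normally distributed values of a single group. These groups mix libraries of batch A and B, so the 4 do not measure an excess over chance. In -3 oocytes, the library of worm J (batch B) had 71640 normalized counts of cey-2, while the other 5 had 6538 to 19138. In P0, the single-end library of worm unknown5 (batch A) had 27648 normalized counts of car-1, while the other 5 had 1852 to 6496. The same library had 24028 normalized counts of cey-4, while the other 5 had 1848 to 10128. The P0 library of worm unknownA (batch B) was the low one for ifet-1, with 809 normalized counts against 2167 to 2840 in the other 5. Whether read type or batch has a part in these values was not tested.

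The change of cey-4 from S4 to the -3 oocyte differed between the batches, with a batch by stage term of -2.14 ± 0.63 (edgeR quasi-likelihood test, adjusted p = 0.0451), the only one of the 7 genes past the threshold in any neighboring step. It rests on 2 batch B libraries in each stage. In the 9 early embryo libraries, which enter no comparison, cey-4 had a median of 3284 TPM, with a range of 1242 to 10710.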

How the results depend on the processing

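In S2 vs. S1, none of the 329 alternative values of the 7 genes changed sign. Calls were lost with all mapped libraries for cey-1 (-0.69, adjusted p = 0.059) and cey-3 (0.47, 0.097), and for cey-4 under limma with either pseudocount, where it stayed under 1.5-fold (-0.55 on log2(TPM + 1) and on log2(TPM + 0.1)). In S3 vs. S2 the number of members called was 3, against 5 with all mapped libraries, 1 under limma with either pseudocount, 6 without the detection covariate, 4 in the joint fit of all stages and 2 under DESeq2 and with median-of-ratios factors, and 0 to 4 when 1 library was left out, a check chosen after seeing the data. In S4 vs. S3 it was 0, against 1 in batch A alone and 1 under limma with either pseudocount (cey-1, 0.62). In -3 oocyte vs. S4 it was 0, against 1 in batch A alone. In -1 oocyte vs. S1 it was 1, against 4 with all mapped libraries and 0 in batch A alone, under limma with either pseudocount and with median-of-ratios factors. The cause was not tested.

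With the worm as a replicate block, 1 member was called in S3 vs. S2 and 0 in -1 oocyte vs. S1. Of the members called without the block, the sign turned for cgh-1 in S3 vs. S2 (0.011) and for cey-4 in -1 oocyte vs. S1 (0.54). The block changed no other count of called members. Over all genes it called 0 in S4 vs. S3 and in -3 oocyte vs. S4 and 5 in -1 vs. -2 oocyte, against 689, 104 and 75 without it. The blocked fits held only worms that gave both libraries, 4, 3 and 8 in these comparisons. Without the block, the libraries came from 24, 14 and 20 worms. The counts of calls thus rest on different numbers of libraries, and the effect of pairing alone was not tested. No paired analysis was possible for P0 vs. -1 oocyte because no worm gave both used libraries. In all, the values of the 7 genes changed sign in 6 of 315 alternative values in S3 vs. S2, 18 of 77 in S4 vs. S3, 16 of 119 in -3 oocyte vs. S4, 7 of 119 in -2 vs. -3 oocyte, 8 of 77 in -1 vs. -2 oocyte, 14 of 112 in P0 vs. -1 oocyte and 23 of 77 in -1 oocyte vs. S1, the 2 above included. In S3 vs. S2 the sign changed in 1 value each of cgh-1, car-1 and ifet-1 and in 3 of cey-4. Their highest log2 fold changes there were 0.011 for cgh-1, 0.35 for car-1, 0.076 for ifet-1 and 0.087 for cey-4. The median log2 fold change of all genes was 0.24 in -1 oocyte vs. S1 but 0.51 under DESeq2 and 0.72 under limma on log2(TPM + 1), and -0.32 with all mapped libraries, where 1629 genes were called higher and 2399 lower, against 2147 and 1285. In S3 vs. S2 it was 0.14 and 0.25 under DESeq2, so directions there are relative to the scaling. With 6 libraries in -3 oocytes and in P0, and 2 to 5 of batch B in each stage, changes of about 1.5-fold in the late stages may be missed.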

Other observations

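The 9 early embryo libraries, none of them marked as used, differed widely among themselves. Their TPM had medians of 190.07 for cgh-1 (range 0.302 to 827), 93.6 for car-1 (0.418 to 1754), 153 for ifet-1 (1.54 to 237), 70.6 for cey-1 (1.60 to 122), 728 for cey-2 (132 to 6354) and 599.6 for cey-3 (2.153 to 7748). For cey-4, counted lowest at 12123 reads, every embryo library held at least 1242 TPM, and it was the member with the highest median there, whereas cey-2 was in each of the 8 stages. The age of these embryos is not given in the sources used here.

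Of the libraries of mixed segments, 1 held S2 and S3 together and had 1180 TPM of cgh-1, 3924 of cey-2, 903 of cey-3 and 1127 of cey-4, with 253.7 of cey-1, 821 of car-1 and 237 of ifet-1. The other held -2 and -3 oocytes with S4 and had 314 TPM of cgh-1, 4390 of cey-2, 1549 of cey-3 and 734 of cey-4, with 91.2 of cey-1, 428 of car-1 and 109 of ifet-1. Each of these values lay within the combined TPM range of the used libraries of the component stages, except cey-1 in the first, where the highest used S2 or S3 library had 197 TPM, and cgh-1 in the second, where the lowest was 546.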
